A study of Mus musculus with 18 samples.

Results

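The secreted Wnt inhibitors on this array were 9 genes: Wif1, the Dickkopf genes Dkk1, Dkk2 and Dkk3, and the secreted frizzled-related genes Sfrp1, Sfrp2, Sfrp4, Sfrp5 and Frzb. They were chosen by gene symbol, because Wif1 rose after follicle-stimulating hormone (FSH), and every probe set annotated with exactly 1 of these symbols was used. That gave 14 probe sets of the 22626 tested, for 9 of 12393 genes. The level of Wif1 and its differences are therefore given as a description with no test, and the other 8 genes were tested.

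RNA came from whole testes of 18 hypogonadal (hpg) male mice, 10 weeks old, measured on Affymetrix MOE430A arrays. All groups carried the hpg defect, in which gonadotrophin-releasing hormone is not made, so that circulating gonadotrophins are very low and the testis stays small with little germ cell development. Treated males received recombinant FSH (rFSH, Gonal F) under the skin, 8 IU in 0.2 ml of phosphate-buffered saline at 12 h intervals, over 12 h (4 mice), 24 h (3 mice) or 72 h (4 mice), and were killed 1 h after the last dose. The 7 controls were untreated hpg males of the same age, and no group injected with saline alone is named. The question was how the testis transcript profile changes over time when FSH is given to an animal that lacks its own.

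Wnt ligands are secreted proteins that bind Frizzled receptors together with the co-receptors Lrp5 and Lrp6, which keeps beta-catenin from being degraded and lets it act with TCF/LEF factors on target genes. Wif1 and the secreted frizzled-related proteins bind Wnt ligands outside the cell, whereas Dkk1 and Dkk2 bind Lrp5 and Lrp6. Dkk3 is a divergent Dickkopf whose part in Wnt signalling is less settled. In the testis, FSH acts on its receptor on Sertoli cells, and forced activity of beta-catenin in Sertoli cells is known to disturb their maturation and germ cell support.

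The 250 bases before the annotated start of Wif1 are printed because this gene had the largest difference of the 9, and those of Axin2, a Wnt target that inhibits the pathway by feedback, because it also rose at 12 h. Both are RefSeq sequences on GRCm38.p6, 5′ to 3′ on the gene's strand, at chr10:121033754-121034003 (plus strand) for Wif1 and chr11:108920099-108920348 (plus strand) for Axin2. Capitals mark the letters CACGTG (an E-box) and CCGCCC (a GC box core, or its reverse complement GGGCGG).
Wif1: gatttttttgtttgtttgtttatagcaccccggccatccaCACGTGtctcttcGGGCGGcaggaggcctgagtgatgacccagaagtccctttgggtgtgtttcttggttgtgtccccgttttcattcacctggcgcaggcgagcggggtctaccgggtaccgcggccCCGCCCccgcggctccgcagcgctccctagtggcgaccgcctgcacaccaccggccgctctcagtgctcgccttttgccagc
Axin2: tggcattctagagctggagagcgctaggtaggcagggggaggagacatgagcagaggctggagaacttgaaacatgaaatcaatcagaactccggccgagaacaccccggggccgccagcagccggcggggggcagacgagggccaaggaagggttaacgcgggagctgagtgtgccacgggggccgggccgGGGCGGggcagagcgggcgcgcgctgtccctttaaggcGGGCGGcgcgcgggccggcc
Wif1 held CACGTG once, with its first base at position -210 from the start, and the GC box core at -82 and, on the other strand, at -197. Axin2 held the GC box core at -58 and -20, both on the other strand. Of 32851 mouse promoters of the same length, 6.02% held CACGTG and 32.7% the GC box core on either strand. Neither sequence held the cAMP response element TGACGTCA (1.55% of promoters), its core TGACG (17.8%), the TCF/LEF core CTTTGA (13.8%) or the steroidogenic factor core AAGGTCA (4.08%), which says only that these letters are not in this window. The table held the promoters of 6 of the 9 inhibitors. The promoter of Frzb held CTTTGA once, with its first base at -95 on the other strand. That of Dkk1 held it at -117 and, on the other strand, at -174, and Sfrp5 held the TGACG core at -91.

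The arrays fell into an unspiked and a spiked set, and each time was compared with the controls of its own set. Probe sets for the bacterial spike-in transcript Dap read 7.06 to 9.51 (log2) on 12 arrays, those of 12 h and 72 h and control replicates 4 to 7, and 2.22 to 4.23 on the 6 arrays of 24 h and control replicates 1 to 3. The highest reading without a spike, 4.23, was taken as the floor, at or under which a value gives only a bound, and 47.8% of all values lay there. Control replicate 6 stood apart from the other 17 arrays, with spermatid transcripts at 12.0 for Prm1 (elsewhere 2.85 to 3.85), 12.3 for Prm2 (2.88 to 3.40) and 11.7 for Tnp1 (2.96 to 4.49). Results at 12 h and 72 h are therefore given also without it, and it is not among the controls of the 24 h arrays. Control replicate 1 carried fat cell markers, with Adipoq at 4.92 against 2.12 to 2.53 elsewhere and Fabp4 at 7.58 against 3.17 to 6.08. Sertoli cell markers were present, as 10 of the 11 measured read above the floor on at least 1 array, the exception being Amh. In whole testis, fewer cells of a type and less RNA per cell cannot be told apart.

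Wif1, which encodes a secreted protein that captures Wnt ligands, was at the floor in all 7 untreated testes and above it in all 11 treated ones. After 12 h of FSH its single probe set read 6.57, 6.53, 6.61 and 7.16 (log2), against 3.02, 3.22, 3.13 and 3.16 in control replicates 4 to 7. After 72 h it read 4.28, 5.08, 5.22 and 4.88. After 24 h it read 5.35, 4.91 and 4.32, against 3.33, 3.69 and 3.27 in control replicates 1 to 3. Treated and control arrays of the same set did not overlap at any time, and the 12 h arrays all lay above those of 72 h.

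The mean of Wif1 at 12 h was 6.72 ± 0.29 (SD, n = 4) against 3.13 ± 0.08 (n = 4), a difference of 3.59 ± 0.23 (log2, SE). Because the controls were at the floor, the rise can be stated only as at least 5.62-fold, the 12 h mean over the floor value. At 72 h the mean was 4.87 ± 0.41 (n = 4), 1.73 ± 0.23 above the controls, or at least 1.56-fold. At 24 h it was 4.86 ± 0.52 (n = 3), against 3.43 ± 0.23 in its own controls (n = 3), a difference of 1.43 ± 0.26, or at least 1.55-fold. The level at 72 h was 1.85 ± 0.23 lower than at 12 h on arrays of the same set. The 24 h arrays lie in the other set and are not compared directly with those of 12 h here, since both control means were under the floor. Without control replicate 6 the differences at 12, 24 and 72 h were 3.58, 1.43 and 1.73.

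**Figure D1:**
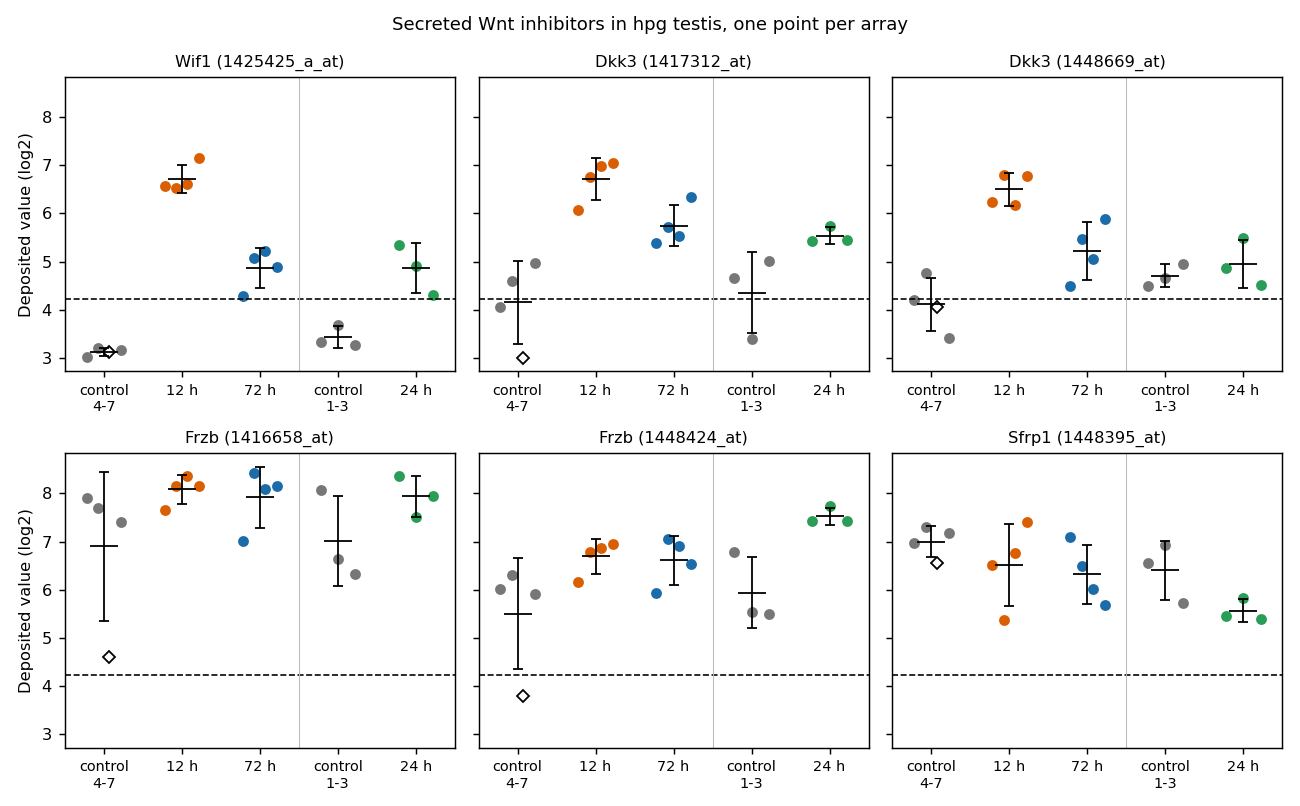
Deposited log2 values of Wif1, Dkk3, Frzb and Sfrp1 on each of the 18 arrays, by group, the brighter probe set first where there are 2 and the brightest for Sfrp1, with the spiked set left of the grey line and the unspiked set right of it. Points are arrays, bars are means with SD, the open diamond is control replicate 6 and the dashed line is the floor of 4.23. All 7 Wif1 controls lie under the floor and the 4 arrays at 12 h read 6.53 to 7.16. Control replicate 6 is the lowest array for both probe sets of Frzb, at 4.60 and 3.80.

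Among the Dickkopf genes Dkk3 rose at 12 h on both of its probe sets, whose 12 h means lay 5.61-fold and 4.83-fold over the floor. These folds are not bounds on the rise, since some controls read above the floor. On both probe sets the 72 h mean lay between that of control replicates 4 to 7 and that at 12 h. The brighter probe set read 6.07, 6.76, 6.98 and 7.04 at 12 h and 5.39, 5.72, 5.52 and 6.35 at 72 h, against 4.05, 4.61, 3.00 and 4.97 in control replicates 4 to 7. At 24 h it read 5.44, 5.74 and 5.44, against 4.65, 3.40 and 5.01. No treated array overlapped its controls. The floor held 3 of the 7 controls, and on both probe sets the mean of control replicates 4 to 7 (4.16 and 4.12) lay under it, so that log2 differences from them are partly set by values that give only a bound.

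The 12 h rise of Dkk3 was 2.56 ± 0.41 (log2, SE, n = 4 against 4; limma adjusted p = 0.00151), and 2.17 without control replicate 6 (adjusted p = 0.00316). It was called in all 18 fits that left out an array. At 72 h, where its mean lay 2.86-fold over the floor, Dkk3 was 1.59 ± 0.41 higher (adjusted p = 0.0328). This call was lost without control replicate 6, which had the lowest level (1.20, adjusted p = 0.0786), and also without control replicate 4 or without replicate 2, 3 or 4 at 72 h, over a range of 1.20 to 1.86. At 24 h the difference was 1.19 ± 0.47 (adjusted p = 0.108), and it was called without the array set block (1.30, adjusted p = 0.02). The fall from 12 h to 72 h, -0.97 ± 0.41, did not pass (adjusted p = 0.367).

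The dimmer probe set of Dkk3 read 6.24, 6.79, 6.18 and 6.78 at 12 h and 4.48, 5.46, 5.06 and 5.89 at 72 h, against 4.21, 4.76, 4.07 and 3.42 in the controls. The 12 h arrays lay above all others of their set, and the 72 h arrays overlapped the controls. Its rise at 12 h was 2.38 ± 0.32 (adjusted p = 0.00035; 2.37 without control replicate 6, adjusted p = 0.00154). At 72 h it was 1.11 ± 0.32 higher (adjusted p = 0.0572), which was called without 72 h replicate 1 (1.35), control replicate 5 (1.32) or 24 h replicate 2 (1.11). At 24 h it read 4.86, 5.48 and 4.51 against 4.49, 4.67 and 4.96, and the difference of 0.25 ± 0.37 did not pass (adjusted p = 0.668). The probe sets therefore differed at 24 h, where the first lay clear of its controls and the second did not. The decline on this probe set was -1.28 ± 0.32 from 12 h to 72 h (adjusted p = 0.0528) and -2.13 ± 0.49 from 12 h to 24 h with each set against its own controls (adjusted p = 0.0565). Both lay just outside the threshold, and without control replicate 6 the limma adjusted p values were 0.0647 and 0.107. The difference between 24 h and 12 h rests in part on control replicates 4 to 7, whose mean (4.12) lay under the floor. On the brighter probe set that difference was -1.37 ± 0.63 (limma adjusted p = 0.296).

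Dkk1 and Dkk2, the Dickkopf proteins that block Lrp5 and Lrp6, were at the floor on all 18 arrays. Dkk1 read 2.01 to 2.13 and Dkk2 2.22 to 2.57. No change of either could be measured at this signal.

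Frzb, a secreted frizzled-related protein, was above the floor on nearly all arrays, and neither of its probe sets was called at any time. On the brighter one it read 7.65, 8.16, 8.37 and 8.16 at 12 h and 7.00, 8.43, 8.09 and 8.16 at 72 h, against 7.90, 7.70, 4.60 and 7.40 in control replicates 4 to 7. At 24 h it read 8.36, 7.51 and 7.94 against 8.08, 6.64 and 6.32. The groups overlapped at each time, and the low control value was that of replicate 6, the array with spermatid transcripts. The highest control value in the unspiked set was that of replicate 1, the array with fat markers.

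The differences of Frzb on this probe set were 1.18 ± 0.61 at 12 h, 0.93 ± 0.71 at 24 h and 1.02 ± 0.61 at 72 h, none of them called (adjusted p = 0.402, 0.381 and 0.491). Without control replicate 6 they were 0.42, 0.93 and 0.26 (adjusted p = 0.90, 0.162 and 0.861), so most of the difference at 12 h and 72 h rested on that array. The dimmer probe set read 7.42, 7.73 and 7.42 at 24 h against 6.79, 5.55 and 5.49, with no overlap, a difference of 1.58 ± 0.54 (adjusted p = 0.0668). It was called without control replicate 6 (1.58, adjusted p = 0.00911), which is not among the 24 h controls and enters only through the shared spread, and without control replicate 1 (2.0). It was also called without the set block (1.83). At 12 h and 72 h this probe set read 5.93 to 7.06, against 3.80 to 6.30 in the controls, with differences of 1.19 ± 0.47 and 1.10 ± 0.47 (adjusted p = 0.204 and 0.234), or 0.62 and 0.53 without control replicate 6. The part of germ cell or fat transcripts in these differences was not tested.

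Sfrp1, which binds Wnt ligands through a domain like that of Frizzled, was above the floor on all 18 arrays with each of its 4 probe sets and was not called at any time. The brightest read 6.51, 5.37, 6.76 and 7.41 at 12 h and 7.10, 6.49, 6.02 and 5.69 at 72 h, against 6.97, 7.30, 6.56 and 7.17 in control replicates 4 to 7. At 24 h it read 5.46, 5.83 and 5.40 against 6.56, 6.93 and 5.73. The treated means lay under the control means, and the arrays overlapped at every time.

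The differences of Sfrp1 were -0.49 ± 0.40 at 12 h, -0.84 ± 0.46 at 24 h and -0.68 ± 0.40 at 72 h, none of them called (adjusted p = 0.72, 0.22 and 0.474), and -0.64, -0.84 and -0.82 without control replicate 6. The 95% confidence intervals ran from -1.34 to 0.36, from -1.82 to 0.14 and from -1.53 to 0.17, so neither a fall beyond 2-fold nor no change is outside them. Without the set block the 24 h difference was -1.18 and was called (adjusted p = 0.0331). The other 3 probe sets of Sfrp1 differed by -0.75 to 0.00, and none was called.

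Of the remaining frizzled-related genes, Sfrp2 read 2.51 to 2.92, Sfrp4 2.76 to 4.0 and Sfrp5 2.33 to 2.53, at the floor on all 18 arrays. With Dkk1 and Dkk2 they made 5 of the 9 genes for which only an upper bound on the signal was available. Their differences from controls lay between -0.09 and 0.10, with a lowest adjusted p of 0.192. The untreated testis thus gave measurable signal for Sfrp1 and Frzb, signal near the floor for Dkk3, and none above it for Wif1. No member was called different between the untreated controls of both sets (lowest adjusted p = 0.196).

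Over the 8 tested genes, with the brightest probe set for each, 1 was called higher at 12 h and 1 at 72 h, Dkk3 in both cases, and none was called lower. At 24 h none of the 8 was called by limma, and 1 had an unadjusted p under 0.05. Over all probe sets 5.35% were called at 12 h (3.2% higher), 13.4% at 24 h and 6.13% at 72 h (3.63% higher). Without control replicate 6 these shares were 4.52%, 13.5% and 5.69%, and of the 8 genes Dkk3 was called at 12 h and none at 24 h or 72 h. For the difference between 72 h and 12 h and for that between 24 h and 12 h, none of the 8 was called by limma and 1 had an unadjusted p under 0.05, against 2.36% and 0.875% called of all probe sets (2.51% and 0.544% without control replicate 6). Without the array set block 36% of all probe sets were called at 24 h and 40.2% for the difference between 24 h and 12 h, so a call of Dkk3, Frzb or Sfrp1 in that setting is no result about these genes. The median difference of the 8 genes was -0.02 at 12 h, 0.05 at 24 h and 0.02 at 72 h, against 0.00, 0.04 and 0.01 over all probe sets.

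**Figure D2:**
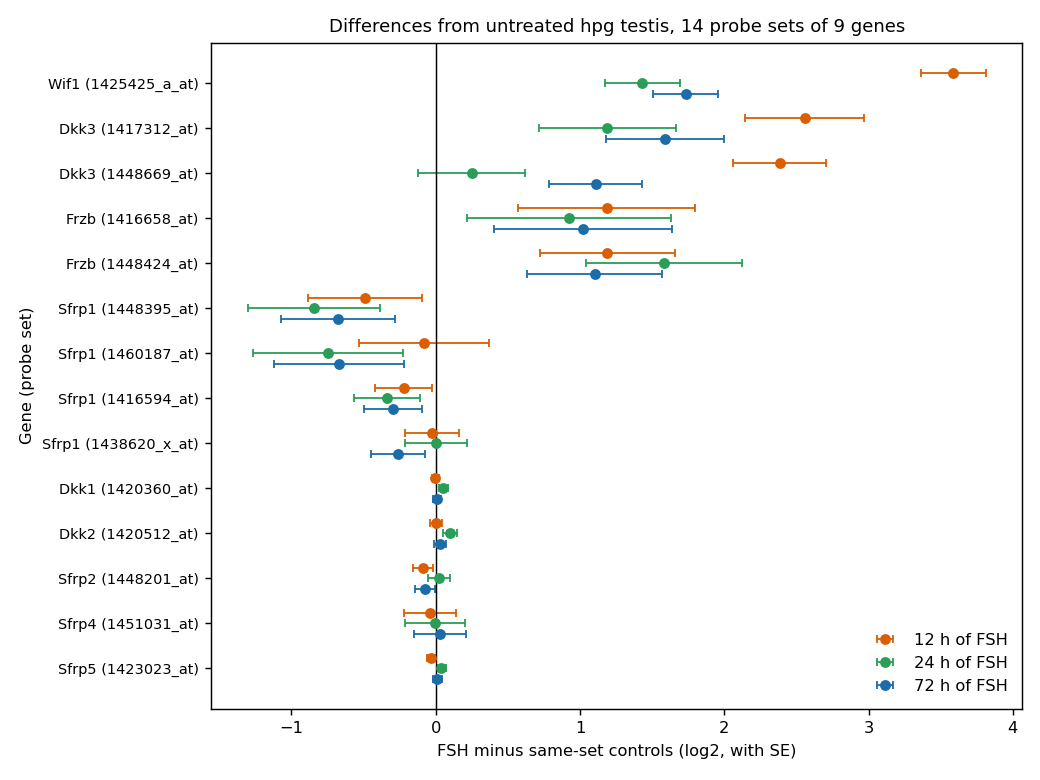
Difference in log2 value between FSH-treated testes and controls of the same array set, with SE, for the 14 probe sets of the 9 genes at 12, 24 and 72 h (4, 3 and 4 treated arrays). Wif1 and both probe sets of Dkk3 lie farthest from 0 at 12 h, at 3.59, 2.56 and 2.38. The 5 genes at the floor lie between -0.09 and 0.10.

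The other Wnt pathway genes were examined as 7 lists of 98 genes, of which 88 were measured and 47 were at the floor on all arrays. With the brightest probe set for each gene, 3 rose and 3 fell at 12 h, 2 rose and 10 fell at 24 h, and 2 fell at 72 h with none rising. Of these, Wnt4 at 12 h and both genes called higher at 24 h were at the floor on all arrays, which leaves 2 higher at 12 h and none at 24 h among the 41 genes above the floor on any array. As a share of the 88 measured genes this was 3.41% higher and 3.41% lower at 12 h, 2.27% higher and 11.4% lower at 24 h and 2.27% lower at 72 h. The shares over all probe sets were 3.2% and 2.16%, 6.1% and 7.26%, and 2.5% lower at 72 h. Without control replicate 6, 3 rose and 1 fell at 12 h, and 2 fell at 72 h, where Ccnd1 (-0.95, adjusted p = 0.0224) stood in place of Tle2. The genes called at 24 h remained called without it.

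Among 13 transcriptional targets of the pathway, 2 rose at 12 h, Axin2 and Ccn4, and none fell. Axin2, which promotes degradation of beta-catenin, read 6.26, 5.39, 6.41 and 5.76 at 12 h on its brighter probe set and 4.95, 5.05, 5.03 and 5.05 at 72 h, against 5.0, 5.12, 4.5 and 4.62 in controls. It rose at 12 h by 1.14 ± 0.19 (adjusted p = 0.00235; 1.04 without control replicate 6, adjusted p = 0.00892), in all 18 fits that left out an array. The 12 h arrays lay above all the others of their set. At 24 h it read 5.17, 4.86 and 4.78 against 5.08, 5.15 and 4.85, and differed from controls by -0.09 there (adjusted p = 0.812), while its 72 h difference was 0.21 (adjusted p = 0.772). It fell by 0.93 from 12 h to 72 h (adjusted p = 0.0206), a call that was lost on leaving out 12 h replicate 1 or 3 or 72 h replicate 1, 2 or 3. Its other probe set was at the floor, from 2.45 to 2.73.

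Ccn4, a matrix-associated protein also known as Wisp1, was higher at every time on the dimmer of its probe sets, which read 6.60, 6.29, 6.56 and 6.43 at 12 h, 6.26, 6.41, 6.27 and 6.21 at 72 h and 4.86 to 5.54 in control replicates 4 to 7. Its rises were 1.26 ± 0.16 at 12 h, 0.78 ± 0.19 at 24 h and 1.08 ± 0.16 at 72 h, all of them called (adjusted p = 0.000224, 0.013 and 0.000867), and 1.22 and 1.04 at 12 h and 72 h without control replicate 6 (adjusted p = 0.00116 and 0.0034). The brighter probe set rose by 1.31 ± 0.28 at 12 h (adjusted p = 0.0122; 1.42 without control replicate 6, adjusted p = 0.0159) and was 0.07 and 0.96 higher at 24 h and 72 h (adjusted p = 0.912 and 0.0643). Jun, a component of the AP-1 factor and an immediate early gene, fell by 1.42 at 24 h and by 1.70 at 72 h (adjusted p = 0.00951 and 0.00169; -1.95 at 72 h without control replicate 6, adjusted p = 0.000473). Ccnd1, a G1 cyclin, fell by 1.23 at 24 h (adjusted p = 0.00955) on its brightest probe set.

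**Figure D3:**
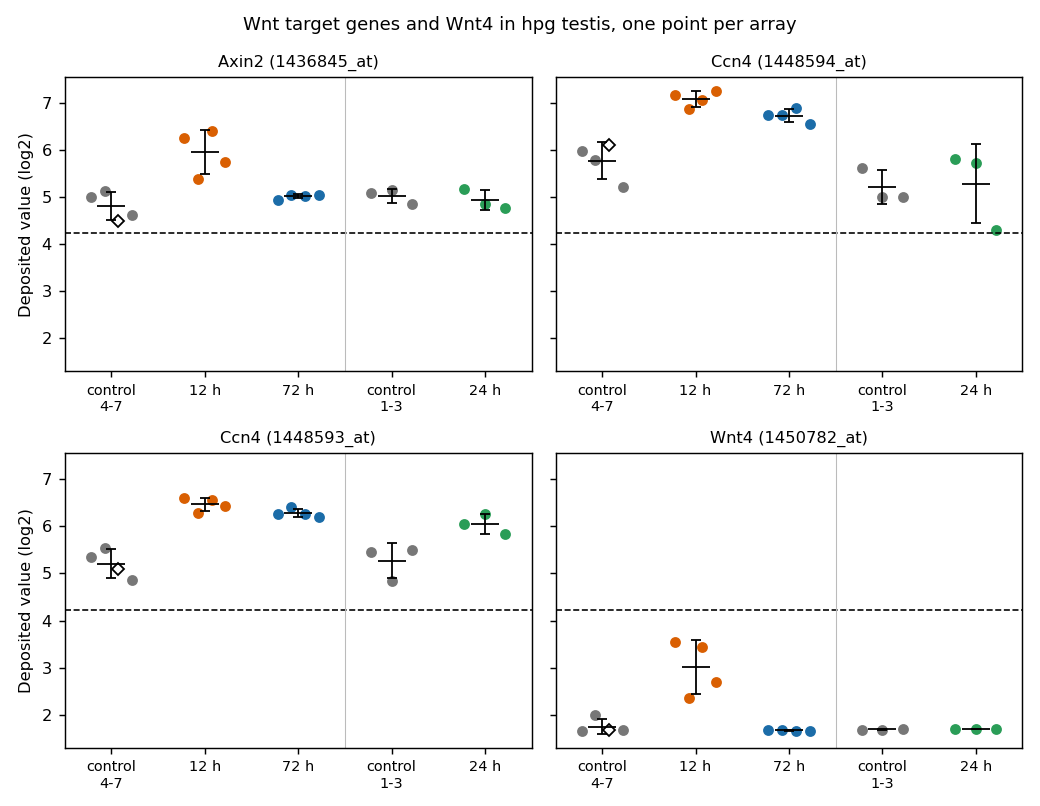
Deposited log2 values of the Wnt targets Axin2 (brighter probe set) and Ccn4 (brighter probe set at upper right, dimmer at lower left) and of the ligand gene Wnt4 on the 18 arrays, drawn as for the inhibitors, with the dashed line at the floor of 4.23. Axin2 reads 5.39 to 6.41 on the 4 arrays at 12 h and at most 5.12 on the other arrays of their set. The dimmer probe set of Ccn4 is higher at each time, and all Wnt4 values lie under the floor.

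Of 19 ligand genes, 15 were at the floor on all arrays. Wnt6 fell by 0.74 at 12 h (adjusted p = 0.0399; 0.0785 without control replicate 6) and by 1.11 ± 0.22 at 24 h (adjusted p = 0.00509). It read 6.28, 5.56 and 6.60 at 24 h, against 7.62, 6.87 and 7.27. Wnt4, a ligand of the developing gonad, was called higher at 12 h (1.26 ± 0.19, adjusted p = 0.00108; 1.24 without control replicate 6, adjusted p = 0.00414). Its values there, 2.36 to 3.54, were all under the floor, so no fold is given.

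Of 18 measured receptors and co-receptors, 1 fell at 12 h and 3 at 24 h. Lrp6, a co-receptor, fell by 1.65 ± 0.31 at 24 h on one probe set (adjusted p = 0.00342), reading 5.22, 4.13 and 4.07 against 6.50, 6.48 and 5.37, and differed by -0.44 on the other (adjusted p = 0.182). Fzd7 and Fzd6, Frizzled receptors, fell by 1.29 and 0.94 at 24 h (adjusted p = 0.0291 and 0.0474), calls kept in 16 and 5 of the 18 fits that left out an array. Fzd3 fell by 0.47 at 12 h on its brightest probe set (adjusted p = 0.0266; 0.0803 without control replicate 6). Its next brightest probe set averaged 5.33 at 12 h against 5.21 in control replicates 4 to 7, with no fall. Another, near the floor, averaged 4.01 against 4.24, and the dimmest lay under the floor.

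Of 10 measured genes listed as other extracellular or membrane inhibitors, Bambi fell by 0.69 at 12 h and by 0.72 at 24 h (adjusted p = 0.0193 and 0.0198; -0.72 at 12 h without control replicate 6, adjusted p = 0.033). Bambi is a decoy receptor of the transforming growth factor family, and its place on the list does not make it a Wnt inhibitor. It read 7.57, 7.90, 7.84 and 8.15 at 12 h against 8.39, 8.87, 8.46 and 8.50. Igfbp4 fell by 1.15 at 24 h on its brightest probe set (adjusted p = 0.048), a call kept in 3 of the 18 fits that left out an array. Its dimmest probe set averaged 4.82 at 24 h against 4.74 in control replicates 1 to 3, while the means of all its other probe sets were lower at 24 h. Sost was called higher at 24 h by 0.23, under the floor.

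Of 13 measured cytoplasmic components, Apc and Axin1, parts of the complex that degrades beta-catenin, fell by 0.59 and 0.63 at 24 h (adjusted p = 0.0266 and 0.0307), and another probe set of Axin1 differed by 0.19. Nkd2 was called higher by 0.27 at 24 h, under the floor. Ctnnb1, which encodes beta-catenin, differed by 0.03, -0.24 and -0.15 at 12, 24 and 72 h (adjusted p = 1, 0.186 and 0.572), from 11.97 to 12.78 over the arrays. Among nuclear factors Tle2, a co-repressor, fell by 1.19 at 72 h (adjusted p = 0.0446; 0.086 without control replicate 6). Of 5 measured R-spondin, secretion and turnover genes none was called against controls, and Porcn, which acylates Wnt ligands, exceeded its 12 h level by 1.10 at 72 h (adjusted p = 0.0201). The 12 h values of Porcn, 3.59 to 4.08, were all under the floor, so this size is partly set by values that give only a bound. A fit on the 6 arrays of the unspiked set alone gave the 12 pathway genes called at 24 h adjusted p between 0.0538 and 0.322, so none was called there. On leaving out an array, the calls of Wnt6 at 12 h and Tle2 at 72 h were kept in 8 and 7 of 18 fits, those of Fzd3 at 12 h and of Apc and Axin1 at 24 h in 13 or 14, and those of Bambi at 12 h and 24 h in 15 and 16.

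The genes with the course most like that of Wif1 were sought over the 11 treated arrays, as the root mean square difference from Wif1 in log2 value minus the mean of the same-set controls, with 1 probe set for each of 12393 genes. Outside the family the nearest were Col4a1 (0.61), a basement membrane collagen, Cbarp (0.84), a regulator of calcium channels, Lgals1 (0.84), a galectin, Bhmt (0.84), a methyltransferase of methionine metabolism, and Pappa (0.86), a protease that cleaves insulin-like growth factor binding proteins. Dkk3 came second of all genes, at 0.76, whereas Frzb was at rank 68 (1.57) and Sfrp1 at rank 11861 (3.16). Col4a1 was 2.95, 0.76 and 1.65 above its controls at 12, 24 and 72 h and Pappa 3.07, 2.30 and 2.50. When only the 3 group means were compared, 4 of the 5 genes were again among the nearest. These are descriptions of the same arrays from which Wif1 was picked.

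**Figure D4:**
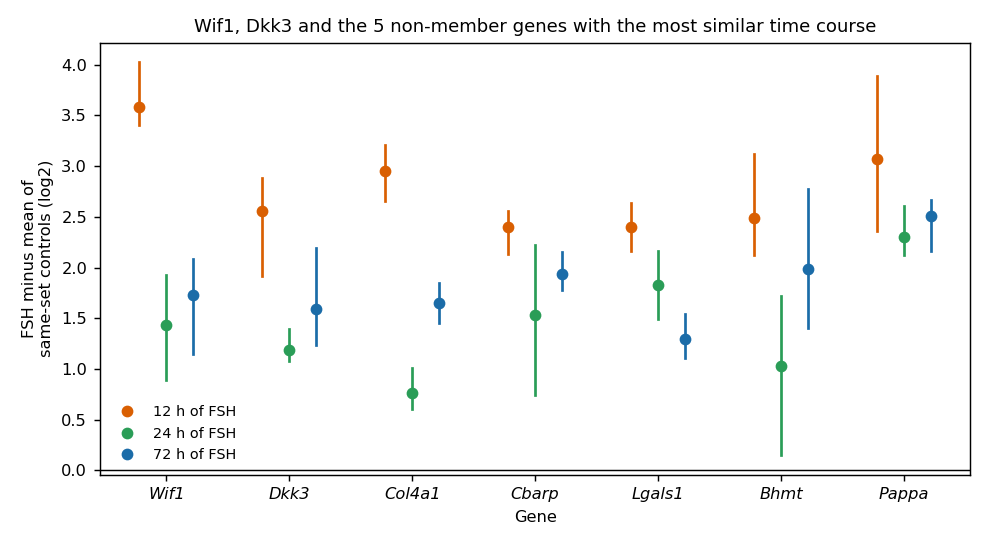
Difference from the mean of the same-set controls (log2) at 12, 24 and 72 h for Wif1, Dkk3 and the 5 genes outside the family nearest to Wif1 over the 11 treated arrays. Points are means and lines run from the lowest to the highest array. The mean at 12 h, from 2.39 for Cbarp to 3.59 for Wif1, lies above that at 72 h for each gene. The 24 h values come from the other array set and are not ranked against them.

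Markers of other testicular cells were read beside these results. Over all probe sets 3.2% were called higher and 2.16% lower at 12 h. The shares were 6.1% and 7.26% at 24 h, and 3.63% and 2.5% at 72 h. The summed linear signal of 7 peritubular myoid markers was 5248 to 6989 at 12 h against 3392 to 5621 in control replicates 4 to 7, and 1 of them, Myl9, was called higher at 12 h. That of 7 Leydig cell markers was 5652 to 7801 at 12 h against 3681 to 7828, with Star and Cyp17a1 called higher at 12 h. Of 11 Sertoli cell markers, 3 were higher and 1 lower at 12 h, over 24817 to 30870 against 23787 to 32429. Those called were Cldn11, Inha, Dhh and Fshr. Leaving out control replicate 6 gave 2 higher and 1 lower at 12 h. Inha and Fshr were also among the Sertoli markers called at 24 h and 72 h. The 8 markers of meiotic and later germ cells summed to 3590 to 5498 at 12 h against 4512 to 17569. Their median difference was -0.93, and 1 of them, Dmc1, was called lower. Both the control range and this median include control replicate 6, and neither is given without it. That array alone read high for Prm1, Prm2, Tnp1 and Acrv1 of this list (12.0, 12.3, 11.7 and 7.68). Leaving it out again gave 1 marker called lower and none higher at 12 h. Of 6 macrophage markers, Cd68 and Mrc1 were called higher at 72 h, where the list summed to 882 to 1213 against 575 to 932. Another of the 6, Csf1r, was called lower at 12 h and at 24 h. At 24 h the Leydig list was 6519 to 8850 against 4790 to 5932 in control replicates 1 to 3, with Star, Cyp17a1 and Cyp11a1 called higher. The 8 spermatogonial markers summed to 2919 to 3906 at 24 h against 4416 to 4824, with Stra8, Sall4 and Kit called lower. The 3 fat markers measured summed to 33.0 to 53.6 at 12 h and 39.8 to 76.6 at 72 h against 17.7 to 29.7, with none called at either time. Of 6 endothelial markers 5 were at the floor on all arrays, as were both measured red blood cell markers. The part of these cells in the levels of Wif1 and Dkk3 was not tested.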

How the data were processed

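Whole testes of 18 hpg mice were each measured on an Affymetrix MOE430A array, and per the labels' protocols 8 µg of RNA was labelled. The authors deposited 1 table of log2 expression values per probe set. Per the submitters' processing notes, RMA and GCRMA were used, but which of them made the values, and on what scale and centring, is not given in the sources used here. Values were read as log2 from the range of 1.04 to 15.2, and array medians were 4.44 to 4.64.

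Of 22690 probe sets, 64 controls were left out and 22626 were tested with no filter on low values. Of these, 20380 had 1 gene symbol, 691 several and 1555 none. The entrez identifiers of 20351 matched a current RefSeq table, which changed 0 symbols. The model (limma 3.58.1 under R 4.3.3, lmFit and eBayes, two-sided) was fitted to all 18 arrays, with group means and the array set as a block (13 residual degrees of freedom), so that each difference is from controls of the same set. Benjamini-Hochberg adjustment ran over all 22626, and a call needed an adjusted p under 0.05. Array number limits the precision. On simulated data the fit recovered 69%, 56% and 72% of 2-fold changes at 12, 24 and 72 h. The changed probe sets were drawn from those with a mean over 1 log2 unit above the floor. Whether these shares hold for dimmer genes, such as Wif1 with a mean of 4.65 over the 18 arrays, was not tested.

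Named were all 9 members, with the probe set of highest mean standing for each gene, the 5 genes nearest to Wif1, Axin2 and Ctnnb1, and up to 4 called genes per Wnt list with the smallest p. Porcn, and the other probe sets of the members, were given beside them. Of the pathway genes, other probe sets were given for Axin2, Ccn4, Lrp6, Axin1, Fzd3 and Igfbp4 but not for the rest. The members and lists were chosen with earlier results of these data known. Alternatives were no set block, the set alone, quantile normalisation, a filter on dim probe sets, an intensity trend, the mean of a gene's probe sets, a replicate block and leaving out each array. Reading each result without control replicate 6 was chosen after seeing the data. Replicate numbers did not pair the arrays: of 21 same-numbered pairs, 5 had a correlation of deviations over 0.1 (-0.24 to 0.41).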

Additional observations from a re-analysis of the deposited data

Results flagged for a closer look

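Samples of the same group were compared for values far from the others in 56 groups of 4 or 7 arrays, and 6 stood out, in 4 genes. The threshold used is one that chance passes in about 5% of independent groups, and these groups overlap, as control replicates 4 to 7 are among the 7 controls. For Wif1 at 12 h, replicate 4 read 7.16, above the other 3 arrays at 6.53 to 6.61. For the next brightest probe set of Sfrp1, control replicate 5 read 7.46, against 5.61 to 5.87 in the other controls of its set, and the other 3 probe sets of the gene did not stand out there. Control replicate 6 accounted for the remaining 4. It was the lowest of its set for Frzb, at 4.60 (others 7.40 to 7.90) and 3.80 (others 5.91 to 6.30), and the highest for Sfrp2, at 2.92, both among control replicates 4 to 7 (others 2.52 to 2.55) and among all 7 controls (others 2.52 to 2.56). The Sfrp2 values are all under the floor. Each control of the spiked set was also compared with the mean of the other controls of that set. Control replicate 6 had 298 probe sets over 2 log2 units above that mean, against 14, 2 and 9 for control replicates 4, 5 and 7. Control replicate 5 had 169 probe sets over 2 log2 units below that mean, against 28, 16 and 24 for control replicates 4, 6 and 7.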

How the results depend on the processing

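The number of tested members called changed under few settings. At 12 h it was 1 under 6 of 7 other settings and in all 18 fits that left out an array, and 0 with the replicate number as a block. At 72 h it was 1 under 6 of 7 other settings, 0 with the replicate block, and 0 to 1 over the fits that left out an array. Without the array set block 4 members were called at 24 h and 5 for the difference between 24 h and 12 h, against 0 for both in the main result. Of these, Dkk1 and Dkk2 at 24 h, and Dkk1, Dkk2, Sfrp4 and Sfrp5 for the difference, were at the floor on all arrays, and that setting called 36% and 40.2% of all probe sets. On leaving out an array the counts for 24 h and for both time differences were 0 throughout. With the replicate block Wif1 was 3.92 above controls at 12 h. The dimmer probe set of Dkk3 at 24 h, which was not called, ran from -0.016 (without 24 h replicate 2, a reversed sign) to 0.47 on leaving out an array. The causes were not tested. Of the tested single-gene values under the other settings, Wif1 left out, 250 kept their direction and side of the threshold, 40 no longer passed it, 12 newly passed it and 0 reversed. The floor set at the array median gave the same number of genes, 5. Values near the floor limit what can be read from low genes, and 3 or 4 arrays a group limit the rest.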
